A study of Homo sapiens with 12 samples.

Results

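The genes described here are 10 genes with very different RNA signals in the uninduced cells of a pair of derivatives of 1 colorectal carcinoma line. They are ADIRF, HMGN3, CADPS, NIBAN1 and KLHL13, which were high in the derivative that carries dominant-negative Tcf4, and CYB5A, PIGR, NKX2-3, NES and ZNF32, which were high in the derivative that carries a hairpin RNA (shRNA) that targets β-catenin. The members were chosen by their signal in the uninduced groups, so that difference is given as a description with no test. Every probe set with exactly 1 of these symbols in the annotation of the array was taken, which gave 21 probe sets of 54613 and 10 genes of 19775. CADPS had 6 probe sets, CYB5A had 4, NIBAN1, PIGR and NES had 2 each, and the other genes had 1. Whether induction altered these genes in either line is the question addressed.

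Both derivatives come from Ls174T, a human colorectal carcinoma line with active Wnt signalling. In Ls174T-pTER-β-catenin doxycycline switches on the shRNA against β-catenin, and in Ls174T-L8 it switches on a dominant-negative Tcf4 transgene. Each derivative gave 3 uninduced arrays of cells grown without doxycycline and 3 induced arrays, after 72 h of doxycycline for the shRNA line and 24 h for the dominant-negative Tcf4 line. All cells grew in the same medium with fetal calf serum, and total RNA was hybridised to Affymetrix U133 Plus 2.0 arrays. Each construct was read in 1 derivative, and the labels do not say whether a derivative is a single clone. Line, construct and hours of induction therefore cannot be told apart where the derivatives are compared. Nor do the labels name separate cultures for the arrays within a group, so p-values measure only the spread between arrays, which may be technical.

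In cells with active Wnt signalling, β-catenin binds the DNA-binding protein Tcf4 in the nucleus and switches on Tcf4 target genes. The shRNA removes β-catenin, while dominant-negative Tcf4 occupies the DNA sites without being able to bind β-catenin. PIGR, the polymeric immunoglobulin receptor, carries IgA and IgM across epithelial cells into the gut lumen and is a product of differentiated intestinal epithelium. The other members have varied roles. ADIRF is a small protein described in fat cell differentiation, HMGN3 binds nucleosomes, NKX2-3 is a homeobox factor and ZNF32 a zinc finger protein. CADPS primes dense-core vesicles for calcium-triggered release, CYB5A is an electron carrier of the endoplasmic reticulum, and NES (nestin) is an intermediate filament protein of progenitor cells. KLHL13 is a substrate adaptor of the CUL3 ubiquitin ligase, and NIBAN1 is a stress-induced protein.

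The promoters of 4 genes that moved with an induction, chosen after their values were seen, are shown first, because the constructs act on Tcf4, whose core recognition motif was searched in them. They are the 250 bases before the annotated start, from RefSeq on GRCh38.p14, 5′ to 3′ on the strand of the gene, at chr10:86968232-86968481 (plus strand) for ADIRF, chr1:206946467-206946716 (minus) for PIGR, chr3:62875417-62875666 (minus) for CADPS and chr1:156677408-156677657 (minus) for NES. Capitals mark TCAAAG, the core of the Tcf4 motif, or its reverse complement CTTTGA.
ADIRF: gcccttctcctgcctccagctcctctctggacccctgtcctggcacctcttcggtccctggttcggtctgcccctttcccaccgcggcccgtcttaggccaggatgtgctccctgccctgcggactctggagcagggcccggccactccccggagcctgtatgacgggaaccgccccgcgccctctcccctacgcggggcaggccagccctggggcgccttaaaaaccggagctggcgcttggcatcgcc
PIGR: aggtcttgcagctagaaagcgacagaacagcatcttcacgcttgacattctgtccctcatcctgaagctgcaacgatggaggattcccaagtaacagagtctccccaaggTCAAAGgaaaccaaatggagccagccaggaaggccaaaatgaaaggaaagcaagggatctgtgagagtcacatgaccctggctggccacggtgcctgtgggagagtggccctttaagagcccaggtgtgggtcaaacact
CADPS: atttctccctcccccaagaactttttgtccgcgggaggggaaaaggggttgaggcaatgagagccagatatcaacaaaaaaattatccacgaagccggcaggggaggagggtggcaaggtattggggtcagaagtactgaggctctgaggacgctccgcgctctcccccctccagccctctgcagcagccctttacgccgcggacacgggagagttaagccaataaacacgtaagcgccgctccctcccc
NES: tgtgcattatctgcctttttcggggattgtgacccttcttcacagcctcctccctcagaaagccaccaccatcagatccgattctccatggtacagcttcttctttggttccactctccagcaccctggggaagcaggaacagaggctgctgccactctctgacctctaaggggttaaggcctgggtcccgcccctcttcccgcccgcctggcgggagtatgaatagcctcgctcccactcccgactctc
Only the PIGR sequence of these holds the core, 1 time, with its first base at -140 from the start. Windows of 300 bases, 250 before and 50 from the start, were found for all 10 genes, 12 windows in all since KLHL13 and ZNF32 have more than 1. The core occurred in 1 of the 12 windows, against 4536 of 35116 windows of all genes, or 12.9%. A match of these letters is a description and not a bound site, and Tcf4 binding was not measured here.

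The same windows differ in their number of CG dinucleotides, the letters at which vertebrate DNA is methylated. They numbered 21 for ADIRF, 24 for HMGN3, 17 for CADPS, 18 for NIBAN1, 27 and 1 for the KLHL13 windows, 32 for CYB5A, 5 for PIGR, 18 for NKX2-3, 14 for NES, and 36 and 39 for those of ZNF32. Over all windows the median was 14 and the quartiles were 4 and 28. PIGR and 1 KLHL13 window thus lay at or under 5, and all others at or above the median of all windows. DNA methylation was not measured here.

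The quantity measured was the MAS5 signal of a probe set, a linear intensity in arbitrary units that was scaled by the authors to the same mean on each array. Signals under 1 were set to 1 before log2, and a probe set was called when the adjusted p of a limma fit over all 54613 probe sets was under 0.05. Median signals per array lay between 12.1 and 15.3, correlations within a group between 0.958 and 0.969, and those between the lines between 0.88 and 0.917. The constructs were checked first. CTNNB1, which encodes β-catenin, had a mean signal of 3784 ± 195 (SD, n = 3) in uninduced and 156 ± 21.4 (SD, n = 3) in induced shRNA cells on probe set 201533_at. TCF7L2, which encodes Tcf4, had 408 ± 21.3 (SD, n = 3) in uninduced and 3128 ± 709 (SD, n = 3) in induced dominant-negative Tcf4 cells on probe set 212762_s_at. This probe set was also called higher with the shRNA, by 1.55-fold (limma, adjusted p = 0.00638). The TCF7L2 probe sets 212761_at, 216035_x_at and 216037_x_at were called higher in both lines, by 1.40-fold to 1.67-fold. With dominant-negative Tcf4 alone 212759_s_at was called, and 216511_s_at and 236094_at were called in neither line.

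The label of the cells was read from marker genes. All 12 markers of colorectal epithelium were measured at or above the median signal of all probe sets, which was 10.2. Their summed signal ranged from 16377.7 to 18847.9 in the uninduced and from 33869.8 to 39007.5 in the induced shRNA arrays. The dominant-negative Tcf4 line had sums from 23159.3 to 26058.2 uninduced and from 31004.6 to 34576.1 induced. With the shRNA 7 of these 12 markers rose, and with dominant-negative Tcf4 6 rose, and none fell in either line. The summed signal was thus higher in both induced groups, as were ADIRF and PIGR, and its part in their rise was not tested. Of other cell types, 5 of 9 fibroblast, 1 of 5 measured leukocyte, 1 of 4 endothelial and 1 of 4 nerve markers reached 10.2. The nerve marker that did was TUBB3. Nerve sums ranged from 1274.2 to 1890.3 on uninduced and from 1325.4 to 1530.4 on induced shRNA arrays. In the dominant-negative Tcf4 line they ranged from 4068.5 to 5477.7 and from 3598.7 to 4383.2. Leukocyte sums ranged from 102.4 to 142.1 and from 93.8 to 123.5 in the shRNA line. In the other line they ranged from 30.2 to 50.1 and from 42 to 45.4. Of the leukocyte markers 1 was called lower with the shRNA, and PTPRC lay between 0.8 and 10.7 on all arrays.

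In uninduced cells the brightest probe set of each gene differed between the lines by 84.3-fold to 855-fold with the floor of 1, and by 27.8-fold to 261-fold after adding 3.5 to each signal. In 7 of the 10 genes all 3 arrays of the low line lay under 10.2, and the exceptions were ADIRF, HMGN3 and PIGR. The array files hold no detection calls, so how far these low signals lie above background is unknown, and folds against them depend on the floor. A difference of at least 64-fold was found for 27 probe sets in all, 13 of them of the 10 genes. After adding 3.5 it was found for 11, of which 7 belong to these genes and the others are annotated to the α-globin genes HBA2 and HBA1.

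**Figure D1:**
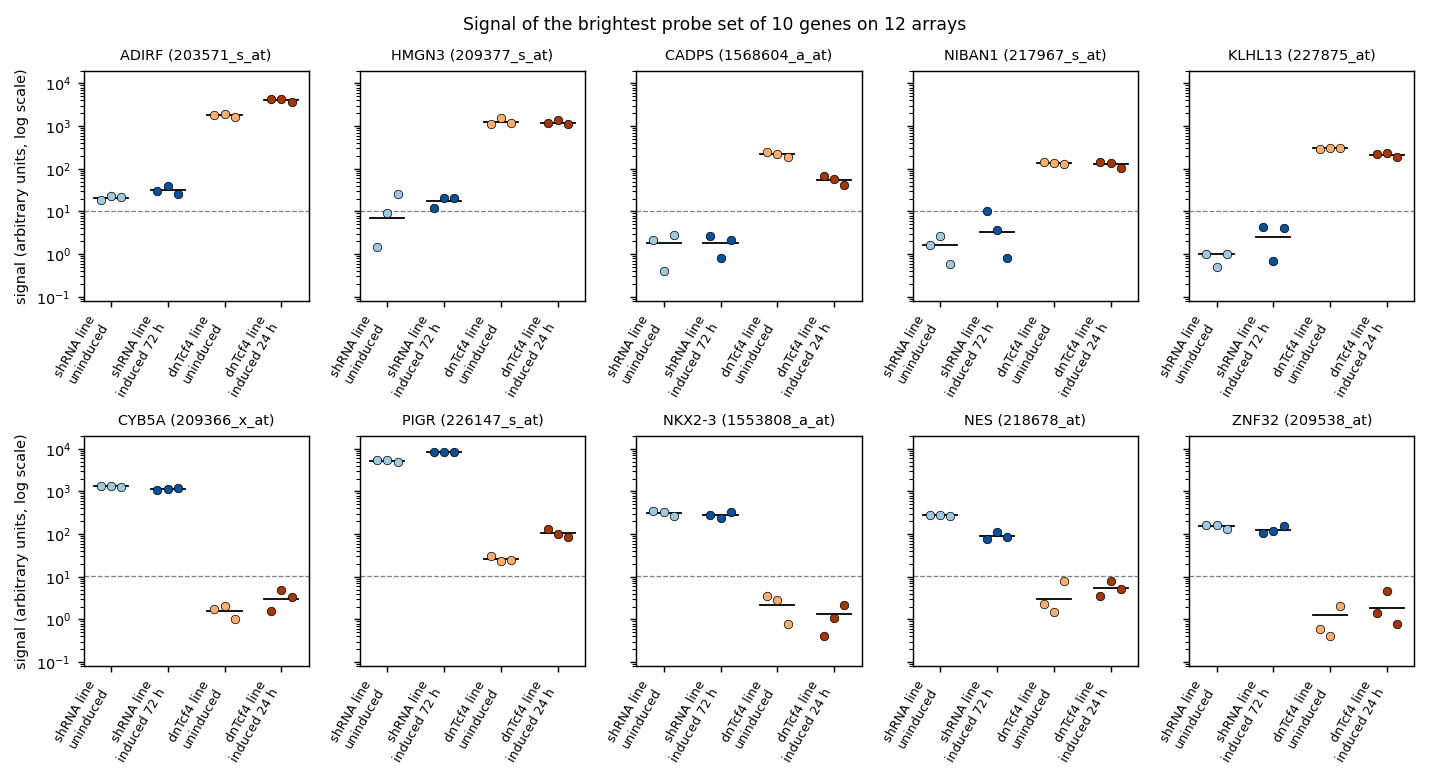
Signal (arbitrary units, log scale) of the brightest probe set of each gene on the 12 arrays. Points are arrays, bars are geometric means after setting signals under 1 to 1, and the dashed line is the median signal of all probe sets, 10.2; each gene is high in both groups of 1 line and low in both groups of the other.

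The difference between the lines was also fitted on the induced arrays. The rule names the uninduced groups alone, but results of all 12 arrays were known when the genes were chosen. The same derivatives are compared after induction, so a large difference there was to be expected from the choice. Counts and p-values of the induced groups are thus a description and no independent support. All 10 genes still differed on the induced arrays, in the same direction as before induction, by at least 1 probe set. Of the 21 probe sets 16 were called, 8 higher and 8 lower in the induced dominant-negative Tcf4 cells, against 18.6% of all probe sets (8.83% higher and 9.73% lower). All 16 differed by at least 2-fold, which 8.19% of all probe sets did with a call. The 5 not called were CADPS 233950_at, 234220_at and 239884_at, CYB5A 217021_at and NES 229346_at. In 17 probe sets the groups did not overlap, against 30.7% of all, while in the uninduced groups this held for 19, against 27.8%, where it follows from the choice. The induced lines differed most for CYB5A, by 901-fold on 215726_s_at with the floor of 1 and by 219-fold after adding 3.5 (limma, adjusted p = 2.85e-15). They differed least among the brightest probe sets for NES, by 16.9-fold and 10.4-fold on the same scales (limma, adjusted p = 8.93e-06).

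**Figure D2:**
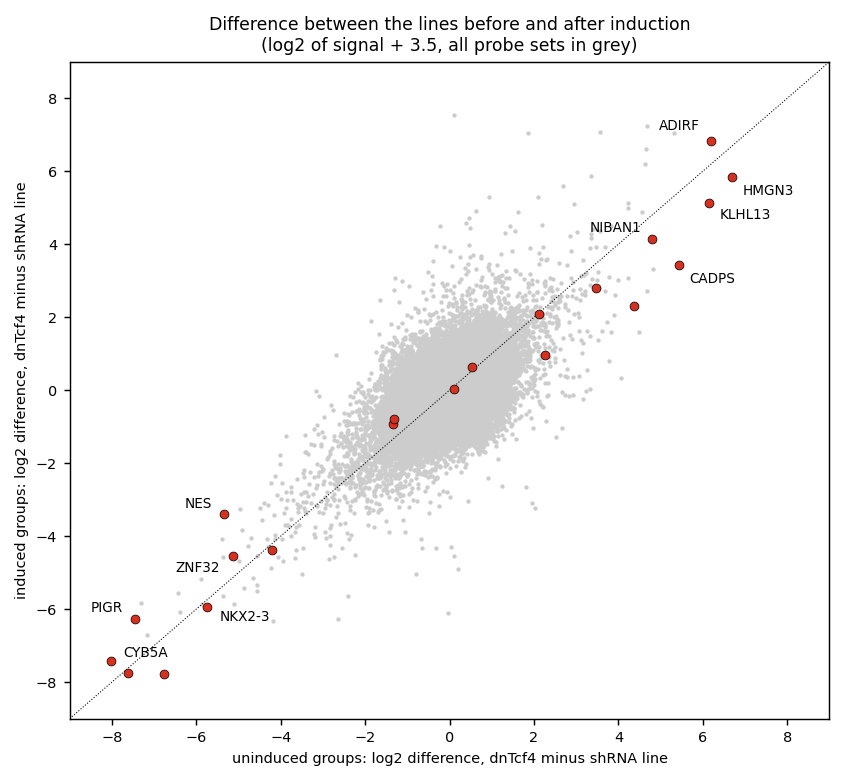
Log2 difference between the lines (dominant-negative Tcf4 minus shRNA) in the uninduced (x axis) and induced groups (y axis), computed on log2(signal + 3.5), with the 21 probe sets in red, all others in grey and a dotted line where both are equal. Among the brightest probe sets, those of ADIRF and NKX2-3 lie farther from 0 on the y axis than on the x axis. Those of all other genes lie closer to 0, with PIGR, NES and CADPS among them. CYB5A 215726_s_at and 207843_x_at, PIGR 204213_at and the dim CADPS 234220_at also lie farther from 0.

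With the shRNA 3 of the 21 probe sets were called, 2 higher (ADIRF and PIGR) and 1 lower (NES), against 11.1% of all probe sets (5.33% higher and 5.76% lower). With dominant-negative Tcf4 5 were called, 2 higher (ADIRF and PIGR) and 3 lower (2 of CADPS, 1 of CYB5A), against 11.4% (5.34% higher and 6.06% lower). A count of 3 in 21 lies near this background, which includes the dim probe sets. A count of 5 lies above it, though 2 of the 5 measure the same gene and 1 rests on signals under 10.2. Of the 21, 15 had a mean at or above the median signal. Among genes at that level, each on its brightest probe set, 27.4% were called after shRNA induction and 29.1% after induction of dominant-negative Tcf4. Neither count in the 21 probe sets lies above these shares, but the 21 include dim probe sets and several of 1 gene. Read on brightest probe sets, as the shares are, ADIRF, PIGR and NES of the 10 genes were called with the shRNA. With dominant-negative Tcf4 these were ADIRF, PIGR and CADPS. Among 10 genes this lies near the shares, so an excess over background was not shown. Without replicate 2 of the induced shRNA group 5 of the 21 probe sets were called with the shRNA, all higher. With no variance trend in the fit 0 of 21 were called (5 at an unadjusted p under 0.05). With dominant-negative Tcf4 the count was 3 without uninduced replicate 1, without induced replicate 2 or without induced replicate 3. Of the called probe sets 1 of 3 with the shRNA and 5 of 5 with dominant-negative Tcf4 moved at least 2-fold, as did 3.81% and 3.26% of all probe sets. Induced and uninduced arrays did not overlap for 5 probe sets with the shRNA (24.1% of all) and for 8 with dominant-negative Tcf4 (25.6% of all). The median change over the 21 was -0.12 and -0.10 on the log2 scale, beside 0.01 and -0.02 over all probe sets. The uninduced arrays that chose the genes are also the controls of both inductions.

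**Figure D3:**
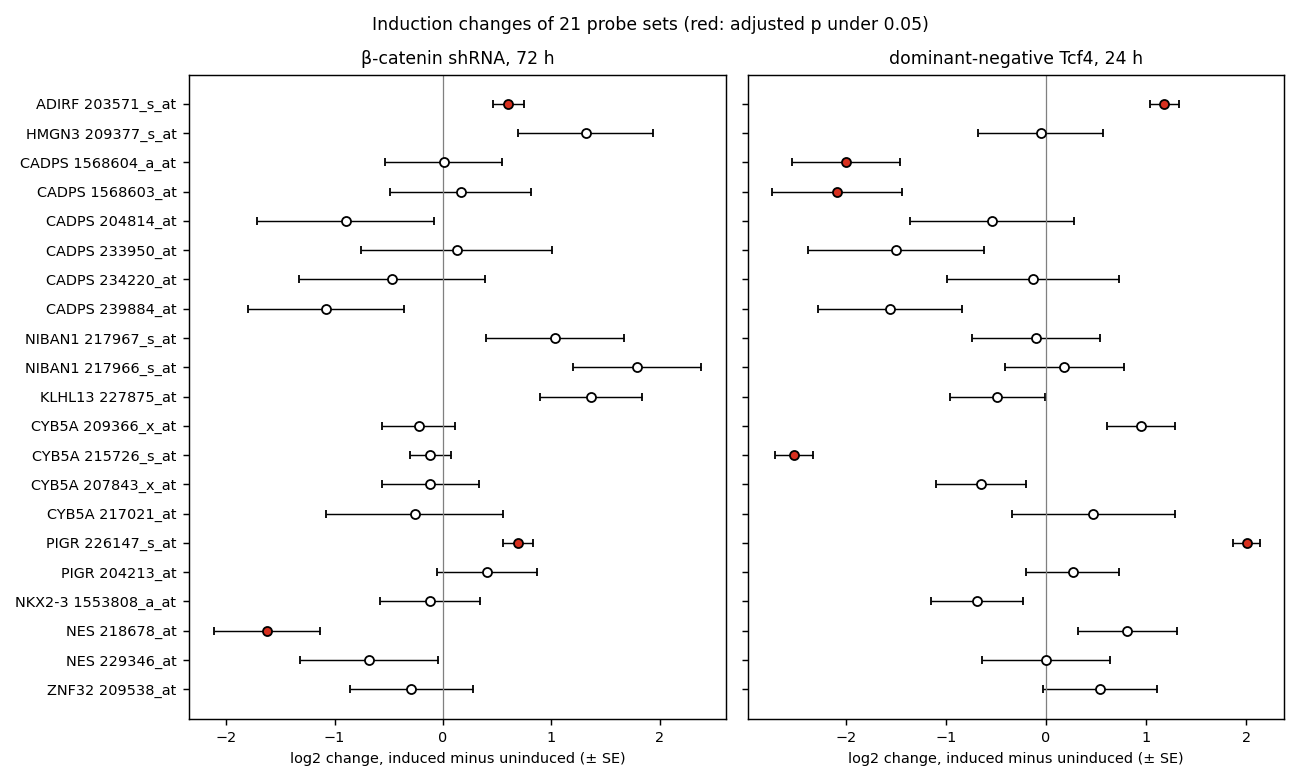
Log2 change (induced minus uninduced, ± SE of the fit) of all 21 probe sets with the β-catenin shRNA (72 h) and dominant-negative Tcf4 (24 h), with called probe sets in red. ADIRF 203571_s_at and PIGR 226147_s_at lie right of 0 in both panels.

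PIGR rose in both lines, and rose by a larger factor in the line where it was low. On 226147_s_at the uninduced shRNA arrays held 5515.0, 5389.7 and 4796.9, and the induced ones 8498.3, 8357.3 and 8488.3. The uninduced dominant-negative Tcf4 arrays held 31.4, 23.1 and 25.2, and the induced ones 132.3, 101.1 and 87.7. Induced and uninduced arrays did not overlap in either line, and the induced dominant-negative Tcf4 cells stayed far below the uninduced shRNA cells. The rise was 0.69 ± 0.13 (log2, SE; 1.62-fold) with the shRNA and 2.00 ± 0.13 (4.00-fold) with dominant-negative Tcf4, with adjusted p of 0.00189 and 3.22e-08 in limma. The difference of both changes was itself called, at -1.31 ± 0.19 (log2, SE; limma, adjusted p = 0.000509). With no variance trend in the fit the rise with the shRNA and this difference missed the threshold (adjusted p of 0.0628 and 0.0571).

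The second PIGR probe set, 204213_at, was called in neither line. Its uninduced shRNA arrays held 333.4, 421.5 and 508.8 and its induced ones 926.6, 171.7 and 1045.8. Replicate 2 of the induced group lay under all uninduced arrays while the others lay above them. Without that array the change was 1.25 on the log2 scale in limma (adjusted p = 0.00252), against 0.41 ± 0.46 (SE; adjusted p = 0.716) with it. On 226147_s_at the same array did not stand apart. In the dominant-negative Tcf4 line this probe set held 15.6, 20.8 and 21.3 uninduced and 28.9, 16.8 and 24.7 induced, with overlap (0.27 ± 0.46, limma, adjusted p = 0.852).

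ADIRF also rose in both lines. In the dominant-negative Tcf4 line, where it was high, 203571_s_at held 1805.8, 1878.4 and 1665.9 uninduced and 4224.3, 4260.2 and 3667.5 induced. In the shRNA line it held 18.3, 22.7 and 22.2 uninduced and 31.0, 40.1 and 26.0 induced. No array of an induced group overlapped its uninduced group, and the shRNA line stayed low throughout. The rise was 1.18 ± 0.14 (log2, SE; 2.27-fold; limma, adjusted p = 1.92e-05) with dominant-negative Tcf4 and 0.60 ± 0.14 (1.52-fold; adjusted p = 0.00819) with the shRNA. The difference of the changes, -0.58 ± 0.20, missed the threshold (limma, adjusted p = 0.131), and was called without replicate 2 of the induced shRNA group (-0.74, adjusted p = 0.0208). The smaller rise was not called with only the 6 arrays of the shRNA line in the fit (adjusted p = 0.354) or with no variance trend (adjusted p = 0.0996).

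CADPS fell with dominant-negative Tcf4, in the line where it was high. On 1568604_a_at the uninduced arrays held 249.4, 218.5 and 190.9 and the induced ones 68.0, 57.4 and 41.5. On 1568603_at they held 91.1, 77.9 and 64.9 and then 17.6, 21.1 and 16.1. Neither probe set showed overlap, and the falls were close in size, by 2.00 ± 0.54 (log2, SE; 4.00-fold; limma, adjusted p = 0.0203) and by 2.09 ± 0.65 (4.25-fold; adjusted p = 0.0462). Both calls were lost when any 1 of the 6 arrays of this line was left out, with adjusted p up to 0.117 and 0.152. The sizes of change then stayed within -2.16 to -1.80 and -2.21 to -1.97. The call of 1568603_at was also lost with arrays centred on their median (adjusted p = 0.0651) and with the replicate block (adjusted p = 0.0699). At the lowest, over all alternatives, the adjusted p in limma was 0.00018 and 8e-05. All 4 groups share 1 estimate of the spread of a probe set in the fit. On 1568604_a_at the SD of log2 signals was 0.193 and 0.362 in this line, against 0.766 and 0.757 in the shRNA line.

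In the shRNA line both of these CADPS probe sets lay between 0.1 and 2.8 on all 6 arrays, so a fall there could not have been seen. The difference of the changes missed the threshold (1568604_a_at, 2.01 ± 0.76, limma, adjusted p = 0.184). The other CADPS probe sets were dim and none was called in an induction. On 233950_at the signal was 21.4, 22.2 and 34.4 uninduced and 11.1, 11.2 and 5.8 induced with dominant-negative Tcf4, without overlap but not called (-1.50 ± 0.88, limma, adjusted p = 0.391). On 204814_at it was 30.7, 15.4 and 32.2 and then 21.2, 13.7 and 17.1, with overlap. The probe sets 234220_at and 239884_at stayed between 0.4 and 11.1 on all 12 arrays.

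NES fell with the shRNA, in the line where it was high. On 218678_at the uninduced arrays held 285.3, 286.0 and 261.2 and the induced ones 75.6, 110.0 and 87.0. The groups did not overlap, and the highest induced array was under the lowest uninduced one by more than the spread within either group. The fall was by 1.63 ± 0.49 (log2, SE; 3.09-fold; limma, adjusted p = 0.0414). This call was lost when any 1 of the 6 shRNA arrays was left out and with array quality weights or no variance trend. The adjusted p in limma ran from 7.65e-05 to 0.147 over all alternatives, while the change stayed between -1.77 and -1.50. The SD of log2 signals was 0.0746 and 0.273 in the shRNA line. In the other line, which shares the estimate of spread in the fit, it was 1.26 and 0.567. In the dominant-negative Tcf4 line the signal was 2.3, 1.5 and 8.1 uninduced and 3.6, 7.9 and 5.3 induced, with overlap and under 10.2 throughout (0.81 ± 0.49, limma, adjusted p = 0.414). Without uninduced replicate 3 this change was 1.52 (adjusted p = 0.018).

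The difference of the NES changes was -2.44 ± 0.70 (log2, SE) and missed the threshold (limma, adjusted p = 0.0587); over the alternatives its adjusted p ran from 0.00163 to 0.212. It was called in 7 of 22 alternatives. Among these were centring on the array median, the offset, the floor at 10, the filter on dim probe sets and 1 probe set per gene. The others left out uninduced replicate 3 (-3.15, adjusted p = 0.00232) or induced replicate 1 (-2.72, adjusted p = 0.0431) of the dominant-negative Tcf4 line. The dimmer probe set 229346_at held 32.8, 28.4 and 21.7 uninduced and 17.1, 15.0 and 19.1 with the shRNA. These did not overlap and lay in the same direction as 218678_at, but the change was not called (-0.68 ± 0.64, limma, adjusted p = 0.635). In the dominant-negative Tcf4 line 229346_at held 2.8, 11.4 and 17.1 uninduced and 4.5, 11.3 and 10.7 induced. The uninduced lines thus differed by only 3.33-fold on it. The induced lines differed by -1.06 (log2), which was not called (limma, adjusted p = 0.326).

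CYB5A stayed high in the shRNA line and dim in the other. On 209366_x_at the uninduced shRNA arrays held 1326.9, 1364.2 and 1304.4 and the induced ones 1108.7, 1120.6 and 1196.2. The groups did not overlap, and the change of -0.22 ± 0.34 (log2, SE) was not called (limma, adjusted p = 0.798). With a floor at 10 it was called lower (limma, adjusted p = 0.00188). The SD of log2 signals was 0.565 and 0.836 in the dominant-negative Tcf4 line, against 0.0326 and 0.0593 in the shRNA line. The bright probe sets 215726_s_at and 207843_x_at each changed by -0.12 there, and their groups overlapped (limma, adjusted p of 0.813 and 0.934). Names ending in _x_at or _s_at mark probes that can also bind other transcripts, so these probe sets are not independent of related genes.

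In the dominant-negative Tcf4 line 1 CYB5A probe set was called, at signals near the floor. On 215726_s_at the uninduced arrays held 6.9, 5.5 and 5.9 and the induced ones 0.5, 1.2 and 1.0. All 6 values lay under 10.2, and the fall by 2.51 ± 0.19 (log2, SE; 5.71-fold; limma, adjusted p = 1.25e-07) was 2.18-fold after adding 3.5 to each signal and 0 with a floor at 10. The other probe sets for which the shRNA line was bright were not called and lay in both directions. On 209366_x_at the same arrays held 1.8, 2.1 and 1.0 and then 1.6, 5.0 and 3.4 (0.95 ± 0.34, limma, adjusted p = 0.0897), and on 207843_x_at 3.9, 0.7 and 4.0 and then 3.1, 0.9 and 1.3 (-0.65, adjusted p = 0.499). Without uninduced replicate 2 the latter was called lower (-1.31, adjusted p = 0.0217), and without induced replicate 1 the former was called higher (1.40, adjusted p = 0.00264). The difference of the changes on 215726_s_at was called at 2.40 ± 0.27 (limma, adjusted p = 3.78e-05) and rests on those dim values, since with a floor at 10 it was -0.12 (adjusted p = 0.544). The probe set 217021_at lay between 0.5 and 10.7 on all 12 arrays.

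**Figure D4:**
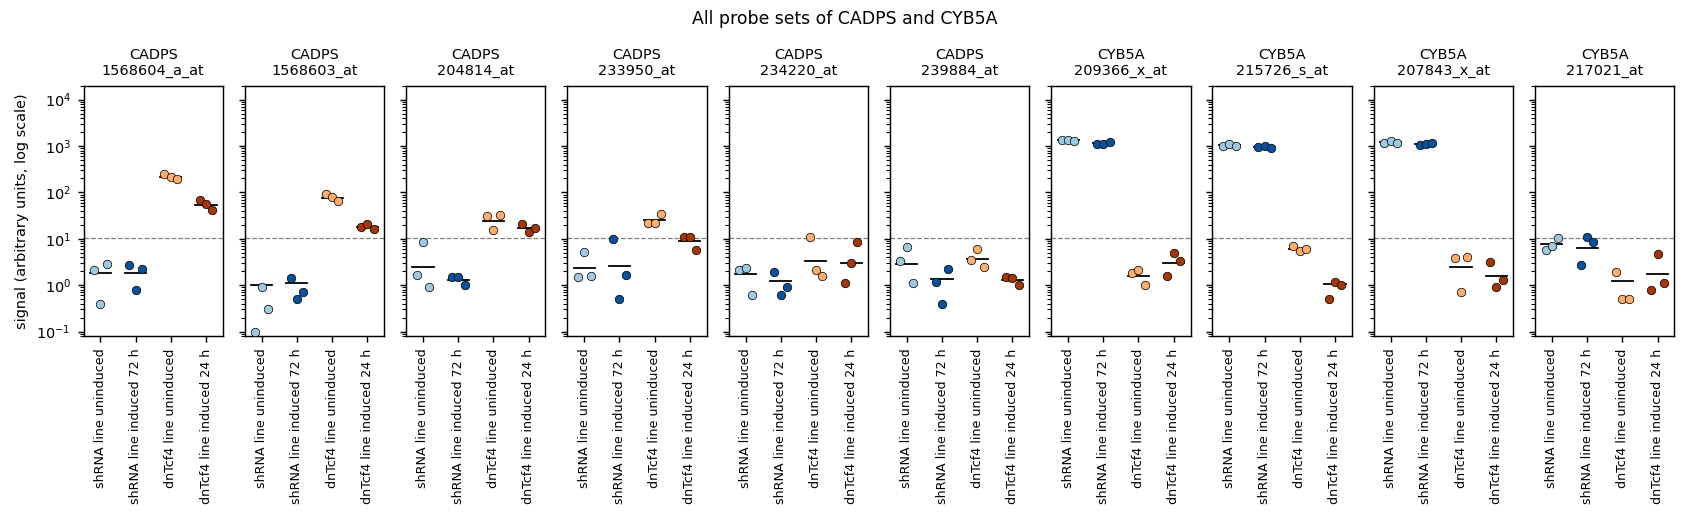
Signal (arbitrary units, log scale) of the 6 CADPS and 4 CYB5A probe sets on the 12 arrays, with geometric means as bars and the median signal of all probe sets, 10.2, as a dashed line. The CADPS falls with dominant-negative Tcf4 are seen on 1568604_a_at and 1568603_at, while the CYB5A values of that line lie under the dashed line on every probe set.

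KLHL13 was not called in either line. Its probe set 227875_at held 296.1, 304.4 and 307.0 in the uninduced and 227.2, 229.9 and 193.1 in the induced dominant-negative Tcf4 arrays. The groups did not overlap, and the change was -0.49 ± 0.47 (log2, SE; limma, adjusted p = 0.683). With only the 6 arrays of this line in the fit the adjusted p was 0.0163. In the shRNA line the signal was 1.0, 0.5 and 1.0 uninduced and 4.3, 0.7 and 4.0 induced, with overlap (1.37 ± 0.47, limma, adjusted p = 0.0809). Without replicate 2 of the induced group that change was 2.05 (adjusted p = 0.000345), at signals under 10.2, and the difference of the changes was called as well (2.54, adjusted p = 0.00204).

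HMGN3 was not called in either line, and its groups overlapped in both. In the dominant-negative Tcf4 line 209377_s_at held 1119.5, 1555.2 and 1154.6 uninduced and 1182.0, 1364.9 and 1114.7 induced (-0.05 ± 0.62, log2, SE; limma, adjusted p = 0.986). In the shRNA line it held 1.5, 9.3 and 25.2 uninduced and 12.2, 21 and 21.2 induced. The uninduced arrays there spread more widely than the induced ones, and the change was 1.32 ± 0.62 (limma, adjusted p = 0.238). Without uninduced replicate 1 it was 0.20 (adjusted p = 0.831), and without uninduced replicate 3 it was 2.23 (adjusted p = 0.0087).

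NIBAN1 was not called in either line. On 217967_s_at the dominant-negative Tcf4 line held 144.5, 139.4 and 128.5 uninduced and 147.2, 137.8 and 104.2 induced, with overlap (-0.10, limma, adjusted p = 0.97). On 217966_s_at it held 63.4, 50.7 and 49.6 and then 53.9, 62.4 and 68.9, also with overlap (0.18, adjusted p = 0.935). In the shRNA line neither probe set passed 10.0 on any array. The change there was 1.79 ± 0.59 on 217966_s_at (limma, adjusted p = 0.0661) and 1.03 ± 0.64 on 217967_s_at (adjusted p = 0.409). Single arrays decide these values, all at signals under 10.2. The change on 217966_s_at was called without uninduced replicate 2 (2.24, adjusted p = 0.0287) and without induced replicate 2 (2.41, adjusted p = 0.00804). On 217967_s_at it was 0.24 without induced replicate 1 (adjusted p = 0.893), 0.68 without uninduced replicate 3 (adjusted p = 0.668) and 1.90 without induced replicate 3 (adjusted p = 0.0219).

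The remaining genes, NKX2-3 and ZNF32, were called in neither line. NKX2-3 held 340.1, 324.2 and 263.6 in the uninduced and 281.4, 241.8 and 333.3 in the induced shRNA arrays, with overlap (1553808_a_at, -0.12 ± 0.46, limma, adjusted p = 0.934). ZNF32 held 166.8, 167.3 and 132.4 and then 107.9, 120.5 and 154.9, also with overlap (209538_at, -0.29 ± 0.57, limma, adjusted p = 0.852). Both stayed low in the dominant-negative Tcf4 line, NKX2-3 between 0.4 and 3.6 and ZNF32 between 0.4 and 4.6 over its 6 arrays. At those signals the NKX2-3 change was -0.69 ± 0.46 (limma, adjusted p = 0.48), and -1.24 (adjusted p = 0.0492) without uninduced replicate 3.

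The difference of the induction changes was called for 2 of the 21 probe sets, 1 higher (CYB5A 215726_s_at) and 1 lower (PIGR 226147_s_at), against 4.54% of all probe sets (2.17% higher and 2.37% lower). Both differences were at least 2-fold, as were 2.08% of all probe sets with a call. For the other 19 probe sets a difference between the lines was not shown, and the fit leaves room for wide ones: the SE of the difference was 0.20 for ADIRF and between 0.48 and 1.24 for the 18 others. Without replicate 2 of the induced shRNA group, or without replicate 1 of the induced dominant-negative Tcf4 group, 4 were called.

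A list of 50 relatives and partners of the members was read from the same fit, of which 46 were measured by a probe set with 1 symbol and 31 of those had a mean at or above the median signal. With the shRNA 5 rose and 8 fell, and with dominant-negative Tcf4 7 rose and 2 fell. Read in the same way, each on its brightest probe set, 17.5% of all 19775 genes were called with the shRNA (8.47% higher and 9.08% lower) and 18.5% with dominant-negative Tcf4 (8.41% higher and 10.1% lower). Between the induced groups 9 relatives were higher and 4 lower in dominant-negative Tcf4 cells, where 27.3% of all genes were called. The changes differed for 9 relatives, 1 higher and 8 lower, against 7.61% of all genes. Their median change was -0.17 for the shRNA and 0.17 for dominant-negative Tcf4, beside 0.01 and -0.02 over all probe sets.

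Of the fat cell factors listed with ADIRF, 3 of 5 rose in each line, against 8.47% and 8.41% of all genes. Of the 5, 4 had a mean at or above the median signal. At that level 27.4% and 29.1% of genes were called in either direction. PPARG rose by 0.44 ± 0.12 (log2, SE) with the shRNA and by 0.66 ± 0.12 with dominant-negative Tcf4 (limma, adjusted p of 0.0256 and 0.0012), where the smaller rise was lost in 9 of 23 alternatives. CEBPD rose by 1.28 ± 0.12 and 0.67 ± 0.12, and CEBPA by 0.58 ± 0.18 and 1.30 ± 0.18, where the smaller rise, with an adjusted p of 0.0492, was lost in 16 of 23 alternatives. CEBPB fell with the shRNA by 0.43 ± 0.09, and FABP4, the fatty acid carrier of fat cells, was dim and not called.

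Among the nucleosome-binding relatives of HMGN3, 3 of 4 fell with the shRNA, against 9.08% of all genes, and none was called with dominant-negative Tcf4. All 4 had a mean at or above the median signal, where 27.4% of genes were called with the shRNA in either direction. The difference of the changes was called for HMGN2 alone (-0.57, limma, adjusted p = 0.00729), so a difference between the lines was not shown for HMGN1 (adjusted p = 0.369) or HMGN5 (adjusted p = 0.0504). HMGN1 changed by -0.33 (limma, adjusted p = 0.00918), HMGN2 by -0.82 (2.2e-06) and HMGN5 by -1.08 (0.00028) with the shRNA, while HMGN4 was at -0.01 (0.973). With dominant-negative Tcf4 their changes were -0.10, -0.26, -0.21 and 0.05 in the order HMGN1, HMGN2, HMGN5, HMGN4. None of them showed the large line difference of HMGN3: in the induced groups they differed by 0.14, 0.51, 0.37 and 0.22 in that order, beside 6.11 for HMGN3.

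Of the partners of KLHL13, KLHL9, the adaptor that works with it on CUL3, rose by 0.70 with the shRNA and by 0.72 with dominant-negative Tcf4 (limma, adjusted p of 1.04e-05 and 8.02e-06). CUL3 itself was not called (-0.08 and -0.02). Their substrate in mitosis, the kinase AURKB, fell by 1.49 ± 0.14 and by 0.77 ± 0.14, and was higher by 1.40 in the induced dominant-negative Tcf4 cells.

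Among the partners of CYB5A, the desaturases SCD and FADS2, which receive electrons through cytochrome b5, fell with the shRNA by 1.28 ± 0.10 and 1.17 ± 0.17 (limma, adjusted p of 2.02e-07 and 0.000138). The related CYB5B fell by 0.83 ± 0.12. SCD also fell with dominant-negative Tcf4, by 0.39 ± 0.10 (adjusted p = 0.0186), a call that was lost in 8 of 23 alternatives. Between the induced groups this list was mixed, with 1 gene higher and 3 lower in dominant-negative Tcf4 cells. The higher one was the reductase gene CYB5R3, by 0.73 ± 0.09 (limma, adjusted p = 1.63e-05). It rose with dominant-negative Tcf4 by 0.70 ± 0.09 (adjusted p = 5.69e-05) and was at 0.00 with the shRNA, and the difference of the changes was called (-0.70, adjusted p = 0.00409). The reductase gene CYB5R2 shared the direction of CYB5A between the lines. Its arrays held 124.6, 88.8 and 117.2 uninduced and 72.1, 69.7 and 90.4 induced in the shRNA line, and 9.1, 6.0 and 5.7 and then 10.8, 0.7 and 7.1 in the dominant-negative Tcf4 line. The induced groups differed by -4.18 ± 0.62 (limma, adjusted p = 8.56e-05), and neither induction was called.

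Listed with PIGR was IRF1, an interferon-responsive activator of its transcription. It held 101.3, 102.8 and 104.7 uninduced and 223.5, 190.5 and 303.8 with dominant-negative Tcf4, a rise by 1.19 ± 0.17 (limma, adjusted p = 0.000123). With the shRNA it was not called (-0.28 ± 0.17, adjusted p = 0.395), and the difference of the changes was -1.47 (adjusted p = 0.00145). The vesicle-priming gene UNC13D, listed with CADPS, rose from 12.8, 3.7 and 6.1 to 45.0, 47.3 and 67.7 with dominant-negative Tcf4, by 2.99 ± 0.69 (limma, adjusted p = 0.00715), a direction opposite to that of CADPS. NIBAN2, the relative of NIBAN1, was also higher in the dominant-negative Tcf4 line after induction, by 1.32 ± 0.16 (limma, adjusted p = 7.73e-06). The homeobox genes NKX2-1, NKX2-2, NKX2-5 and NKX2-8, and MADCAM1, a vascular adhesion gene listed with NKX2-3, were not called in either line. The 7 intermediate filament relatives of NES, VIM among them, all had means under the median signal and none was called.

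Genes next to the members on the chromosome were read to see whether the line difference extends to them. The 5 genes on each side of each member in the RefSeq order gave 100 neighbours, of which 39 were measured and 15 (38.5%) were called between the induced groups. Read on their brightest probe sets as well, 27.3% of all genes were called, and 41.8% of those at or above the median signal, a level that 28 of the 39 neighbours reached. The share of the neighbours lies between these shares. Taking the nearest 5 measured genes on each side in place of the nearest 5 listed gave 35 of 100 called, 21 in the direction of their member, and the alternatives moved the count of 15 to between 8 and 18. Of the 15, 10 went in the direction of their member, and 6 did so by at least 2-fold. Next to PIGR, FCAMR, which encodes a receptor for the constant part of IgA and IgM, held 69.9, 67.1 and 77.3 uninduced and 91.8, 95.0 and 112.3 induced in the shRNA line. In the other line it held 1.8, 14.0 and 11.7 and then 17.7, 8.5 and 7.7. The lines did not overlap before or after induction, and the induced groups differed by -3.24 ± 0.57 (limma, adjusted p = 0.000464).

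Next to CYB5A, CNDP2, a dipeptidase gene, was lower in the induced dominant-negative Tcf4 cells by 1.64 ± 0.12 on the log2 scale (limma, adjusted p = 2.6e-08), with a like difference of -1.29 before induction. FBXO15, also near CYB5A, differed by -2.24 ± 0.68 (adjusted p = 0.0288), a call that was lost in 5 of 23 alternatives. CRABP2, a retinoic acid carrier gene next to NES, differed by -1.13 ± 0.21 (limma, adjusted p = 0.000792). It also fell with the shRNA, as NES did, from 124.8, 143.3 and 144.4 to 49.9, 59.8 and 76.8 without overlap (-1.16, adjusted p = 0.00108). BCAN and ISG20L2, near NES as well, differed in the opposite direction, by 1.84 and 1.33.

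Close to ADIRF, SNCG and MMRN2 were higher in the induced dominant-negative Tcf4 cells than in the induced shRNA cells, by 3.43 ± 0.74 and 1.96 ± 0.52 on the log2 scale (limma, adjusted p of 0.00267 and 0.0121), while the lines differed by -0.23 and -0.31 before induction. SNCG, which encodes γ-synuclein, held 2.4, 11 and 13.4 uninduced and 66.4, 51.0 and 76.5 induced there, and between 2.4 and 15.7 on the 6 shRNA arrays. It rose by 3.17 (log2; limma, adjusted p = 0.00805) with dominant-negative Tcf4, and MMRN2 by 1.91 (adjusted p = 0.0222). The gene between them and ADIRF, the antisense gene ADIRF-AS1, went another way. It was called with the shRNA, where it held 6.2, 3.5 and 3.1 uninduced and 22.3, 24.4 and 16.9 induced (2.36, limma, adjusted p = 0.00665), and it was not called with dominant-negative Tcf4 (-0.31, adjusted p = 0.849). SNCG and FCAMR kept their calls between the induced groups in all 23 alternatives, and MMRN2 lost its call in 1 of 23.

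**Figure D5:**
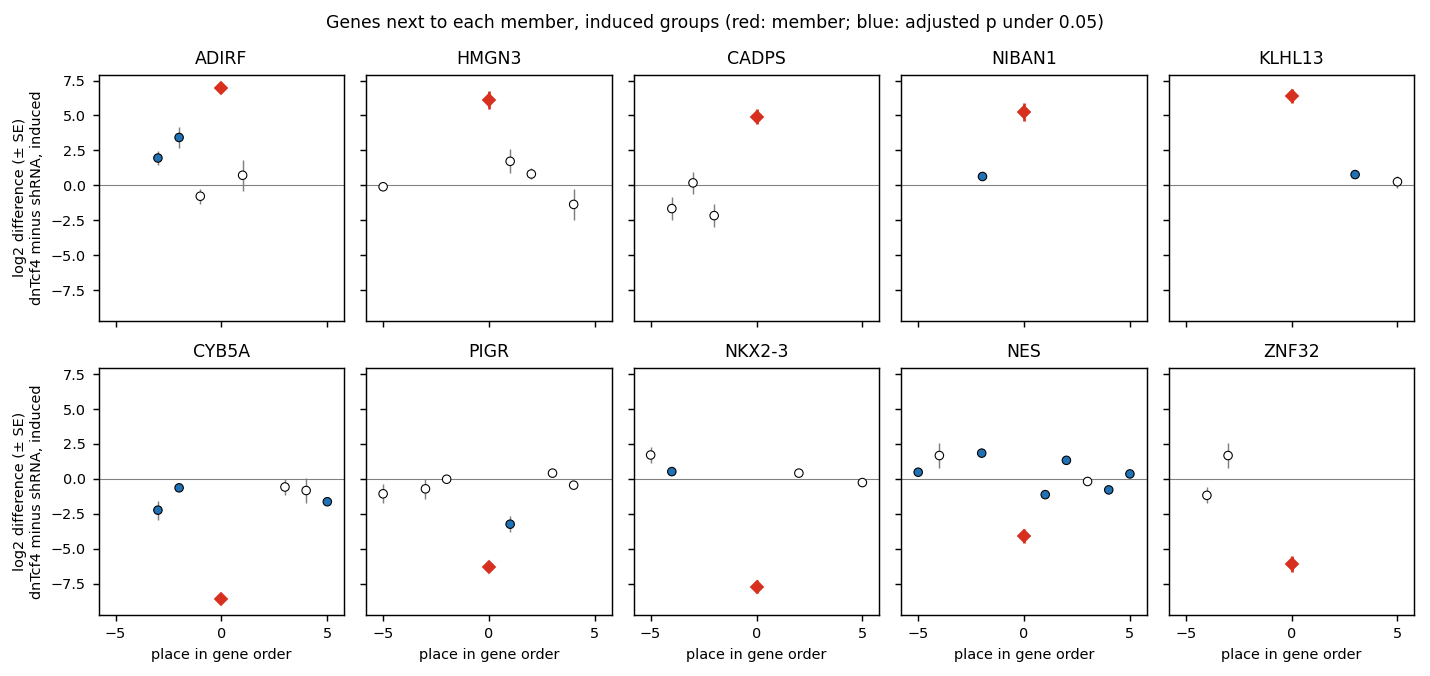
Log2 difference between the induced groups (dominant-negative Tcf4 minus shRNA line, ± SE) of each gene (red diamond at place 0) and of its measured neighbours within 5 places in gene order, with called neighbours in blue. FCAMR at place 1 of PIGR and SNCG at place -2 of ADIRF are among the neighbours that differ most.

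The genes whose profile over the 12 arrays was most like the mean log2 profile of the 5 members high in a line were found among 12376 other genes. These correlations describe arrays that fall into separate lines, so any gene that differs cleanly between the lines scores high. For the members high with dominant-negative Tcf4 they were PRRG4 (Pearson r = 0.994), SATB1 (0.991) and MOAP1 (0.989). For those high in the shRNA line they were ARHGAP32 (0.995), TCEA3 (0.993) and GALNT12 (0.993). SATB1, a chromatin organiser, held 627.9, 624.7 and 617.2 in uninduced and 440.5, 426.7 and 461.7 in induced dominant-negative Tcf4 cells, and between 30.2 and 81.0 on the shRNA arrays. TCEA3, an elongation factor gene, held between 384.9 and 460.3 on the shRNA arrays and between 11 and 26.7 on the others.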

How the data were processed

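RNA of 12 samples was read on 12 arrays in 4 groups of 3. The deposited table holds 1 intensity (signal) per probe set and array on a linear scale, made with MAS5 and GCOS per the submitters' processing notes; no version is given in the sources used here, and the table has no detection calls. Of 54675 probe sets 62 are controls, 41097 have 1 gene symbol, 1801 several and 11777 none here. Signals under 1 were set to 1, log2 was taken, and 4 group means were fitted over 54613 probe sets with limma 3.58.1 in R 4.3.3 (eBayes with a variance trend, 8 residual degrees of freedom). Two-sided p-values were adjusted by Benjamini and Hochberg over all probe sets within each of 4 contrasts, and calls were made at 0.05. No dim probe set was removed, because a member would pass through its high line.

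The members and lists were chosen with earlier results of these data known. All probe sets of the members were reported. Called relatives with the largest change were named, up to 4 a contrast, with the HMGN, NKX2 and KLHL9 relatives. Called neighbours were named where they went with their member by at least 2-fold, up to 2 a member. Other relatives and neighbours were named after their values were seen. Relatives and neighbours were run under the alternatives by a choice made after seeing the data. Gene order and promoters come from RefSeq (GRCh38.p14). Each gene outside the members was read from the probe set brightest on average (log2).

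Alternatives were quantile normalization, centring on the array median, an offset of 3.5, a floor at 10, a filter on dim probe sets, 1 probe set per gene, no variance trend, array weights, a fit of the compared arrays alone, a replicate block, a minimum change of 2-fold, and leaving out each array. Replicate numbers did not pair samples: deviations of same-numbered arrays correlated between -0.0348 and 0.0592. On simulated data with 54613 probe sets, 46% of 2-fold and 81% of 4-fold changes were recovered in the shRNA contrast. In the dominant-negative Tcf4 contrast 56% and 79% were recovered. There each probe set had the same mean in all groups before 100 per fold change were altered, all at or above the median signal. The members differ in level between the lines, so these shares are not the power for them. The 3 arrays per group limit the precision.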

Additional observations from a re-analysis of the deposited data

Results flagged for a closer look

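The induction changes of 2 probe sets differed between the lines by the test of the difference itself. For PIGR 226147_s_at the change with the shRNA was smaller than that with dominant-negative Tcf4 by a log2 difference of -1.31 (limma, adjusted p = 0.000509), and all 3 induced arrays lay above all uninduced arrays in each line. For CYB5A 215726_s_at the difference was 2.40 (limma, adjusted p = 3.78e-05), and the values of the dominant-negative Tcf4 line behind it all lay under the median signal of 10.2. Hours of induction differed as well, so line, construct and time cannot be told apart in either.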

How the results depend on the processing

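The 3 probe sets called with the shRNA became 5 (of 15) with a filter on dim probe sets, 0 with no variance trend (5 at an unadjusted p under 0.05 in limma) and 1 with a minimum change of 2-fold. The 2 called for the difference of the changes became 5 with an offset in place of the floor and 7 with a floor at 10. The 16 called between the induced groups became 10 of 10 with 1 probe set per gene, by construction. CYB5A 215726_s_at reversed its difference of the changes to -0.12 with a floor at 10. Leaving out 1 array gave 2 to 5 calls with the shRNA, 3 to 5 with dominant-negative Tcf4, 2 to 4 for the difference and 16 to 17 between the induced groups. With the replicate number as a block the counts were 3, 4, 2 and 16 in that order; the block ended the call of CADPS 1568603_at and no other member call. The rises of PIGR 226147_s_at and ADIRF with dominant-negative Tcf4 kept their calls in all 23 alternatives. With the offset the NES difference of the changes was called (adjusted p = 0.0119), as were those of CADPS 1568604_a_at and 1568603_at (adjusted p of 0.016 and 0.0342). Counts of called relatives ranged from 5 to 13 with the shRNA and from 3 to 13 with dominant-negative Tcf4, and called neighbours from 8 to 18. Restricting the difference of the changes to the arrays compared was not run, since it uses all 12. Causes of these shifts were not tested. Without detection calls, signals near or under 10.2 bear no firm fold.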
